A study of Mus musculus with 5 samples.

Results

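The genes described here are 10 transcripts that mark lipid-associated macrophages in diseased tissue: Trem2, Gpnmb, Cd9, Lpl, Mmp12, Lgals3, Adam8, Fam20c, Fabp5 and Atp6v0d2, of 32285 genes counted. Each was taken as the row of the count matrices that carries its symbol, and its unique molecular identifiers (UMIs, each standing for 1 captured RNA molecule) were summed for each library within liver cell lineages. Livers came from wild-type male mice of the strain C57BL6/J (none carried an altered allele by the labels) that ate regular chow (3 libraries) or a MASH diet (2 libraries, the AMYLIN liver NASH diet) in which fat supplied 40% and fructose 20% of the calories, with 2% cholesterol added. Feeding began at an age of 10 to 12 weeks and lasted 5 months in both groups; whether a library is 1 mouse or a pool is not given, so the spread between libraries may be technical. The 10 genes were chosen with their rise in MASH macrophages already known, so their levels in each diet are given as a description and carry no p-value.

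Lipid-associated macrophages gather around dying or fat-laden cells in obese adipose tissue, atherosclerotic vessels and the steatohepatitic liver. They take up lipid and cell debris through receptors such as TREM2, which signals through the adaptor TYROBP (DAP12), and they break the cargo down in acidified lysosomes. In the healthy liver most macrophages are Kupffer cells, the long-lived residents of the sinusoids that are marked by Clec4f, Timd4 and Vsig4. Several of the 10 genes are also used outside macrophages: LPL by adipocytes and muscle, CD9 by epithelium and endothelium, FABP5 by many cells that carry fatty acids.

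The lineages were rebuilt by clustering and named from marker genes. Of 51470 nuclei kept, 42589 fell into 5 lineages: 2572 were macrophage-like (marked by Cd84, Ms4a7, Clec4f and Cd5l), 32711 hepatocyte-like (Hnf4a), 3188 stellate-like (Reln), 2433 endothelial-like (Ptprb) and 1685 cholangiocyte-like (Pkhd1). All 12 macrophage markers passed in the macrophage-like cluster, which is no independent evidence, since it was named from these same markers. The libraries held between 108 and 162 macrophage-like nuclei in chow and 1246 and 945 in MASH, so a UMI of a rare gene is worth far more in a chow library. Libraries shared 23 to 48 cell barcodes pairwise, at most 0.399% of a library. Levels are in CPM, a gene's UMIs over all UMIs of the same lineage and library on the usual CPM scale. RNA of hepatocyte genes was counted in the other lineages too: 8 hepatocyte markers summed to 10784 to 25054 CPM in chow macrophage-like nuclei and 12191 to 15488 CPM in chow hepatocyte-like nuclei themselves. MASH library 1 had the highest median mitochondrial share of the 5 libraries, 7.42%, against 0.892% to 3.55% in the others.

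All 10 genes are protein coding and lie apart from each other on GRCm38 except Gpnmb and Cd9, which share chromosome 6. Trem2 spans chr17:48346401-48354147 on the plus strand and Gpnmb chr6:49036546-49070929, also plus. Mmp12 (chr9:7344381-7369499, plus) overlaps Mmp1b on the opposite strand at its 3′ end, Cd9 (chr6:125460266-125494791, minus) overlaps the antisense genes Gm28809 and Gm26728, and Adam8 (chr7:139978932-139992562, minus) overlaps Gm16201 at its 3′ end. The other 5 are Lpl at chr8:68880491-68907448, Lgals3 at chr14:47367751-47386160, Fam20c at chr5:138754514-138810077, Fabp5 at chr3:10012548-10016607, all plus, and Atp6v0d2 at chr4:19876841-19922605, minus. No annotated gene overlaps any of these 5, Trem2 or Gpnmb.

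Trem2, Gpnmb, Mmp12 and Adam8 had the largest shares of their UMIs in macrophage-like nuclei in MASH, so the bases just before their starts are shown. The windows come from RefSeq (GRCm38.p6) through a table that matched 7 of the 10 genes. Windows of Lpl, Fabp5 and Atp6v0d2 were not used here. They are written 5′ to 3′ on the gene's strand, with any of 4 searched motifs in capitals, up to 250 bases before the start and without bases inside the annotated gene.
Trem2, chr17:48346151-48346400, plus strand: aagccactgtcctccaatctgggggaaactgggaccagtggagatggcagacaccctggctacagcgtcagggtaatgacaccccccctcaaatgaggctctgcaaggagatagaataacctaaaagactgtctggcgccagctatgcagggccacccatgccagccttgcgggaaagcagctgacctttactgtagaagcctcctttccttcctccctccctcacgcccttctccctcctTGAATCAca
Gpnmb, chr6:49036268-49036517, plus strand: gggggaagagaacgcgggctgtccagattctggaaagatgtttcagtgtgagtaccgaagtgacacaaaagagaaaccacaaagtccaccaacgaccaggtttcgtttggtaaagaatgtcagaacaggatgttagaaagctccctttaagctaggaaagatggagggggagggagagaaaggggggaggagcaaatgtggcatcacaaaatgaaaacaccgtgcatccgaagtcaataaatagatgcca
Mmp12, chr9:7344147-7344380, plus strand: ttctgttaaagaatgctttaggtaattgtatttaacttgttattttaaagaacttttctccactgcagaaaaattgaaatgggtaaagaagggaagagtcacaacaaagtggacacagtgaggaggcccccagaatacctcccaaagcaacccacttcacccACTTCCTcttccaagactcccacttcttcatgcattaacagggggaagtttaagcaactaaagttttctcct
Adam8, chr7:139992563-139992812, minus strand: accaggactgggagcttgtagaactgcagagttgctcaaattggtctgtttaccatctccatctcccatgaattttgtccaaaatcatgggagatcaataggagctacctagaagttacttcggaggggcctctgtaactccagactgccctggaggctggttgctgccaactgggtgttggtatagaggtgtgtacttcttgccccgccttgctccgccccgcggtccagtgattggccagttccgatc
The motifs searched on both strands were CACGTG, the E-box of the MiT/TFE factors that drive lysosomal genes, its variant CATGTG, the AP-1 site TGANTCA and the PU.1 and ETS core AGGAAGT. The Trem2 window held an AP-1 site 3 to 9 bases before its start. The Mmp12 window held a PU.1 core read on the minus strand, 82 to 88 bases before its RefSeq start. That start lies inside the annotated gene, so the 234 bases printed end before it. A further Mmp12 start, farther inside the annotated gene, had an AP-1 site and a CATGTG, and Cd9 had a CATGTG. No match was found in the windows of Gpnmb, Lgals3, Adam8 or Fam20c. Over 32851 windows of the same length, CACGTG was in 6.02%, CATGTG in 12.3%, TGANTCA in 6.75%, AGGAAGT in 7.69% and any of the 4 in 28.9%. Of the genes described here, 4 of the 8 windows of the 10 genes held a motif.

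In macrophage-like nuclei all 10 genes had higher levels in both MASH libraries than in any chow library. The first question was how far each rose there, and the second in which other lineages its RNA was found. edgeR's quasi-likelihood test on the summed counts of each library called 86 of 4939 tested genes in this lineage, or 1.74%, at an adjusted p under 0.05. Of the 10 genes 8 passed its filter on low counts and 6 of those 8 were called, all higher in MASH. The median log2 fold change of the 8, which include Adam8 with 0 chow UMIs, was 3.17, against -0.01 over all genes tested. Since the genes were chosen on this contrast, nothing is read from the separation of the diets, the count or this median. The share of all genes whose diets were separated is not given here.

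**Figure D1:**
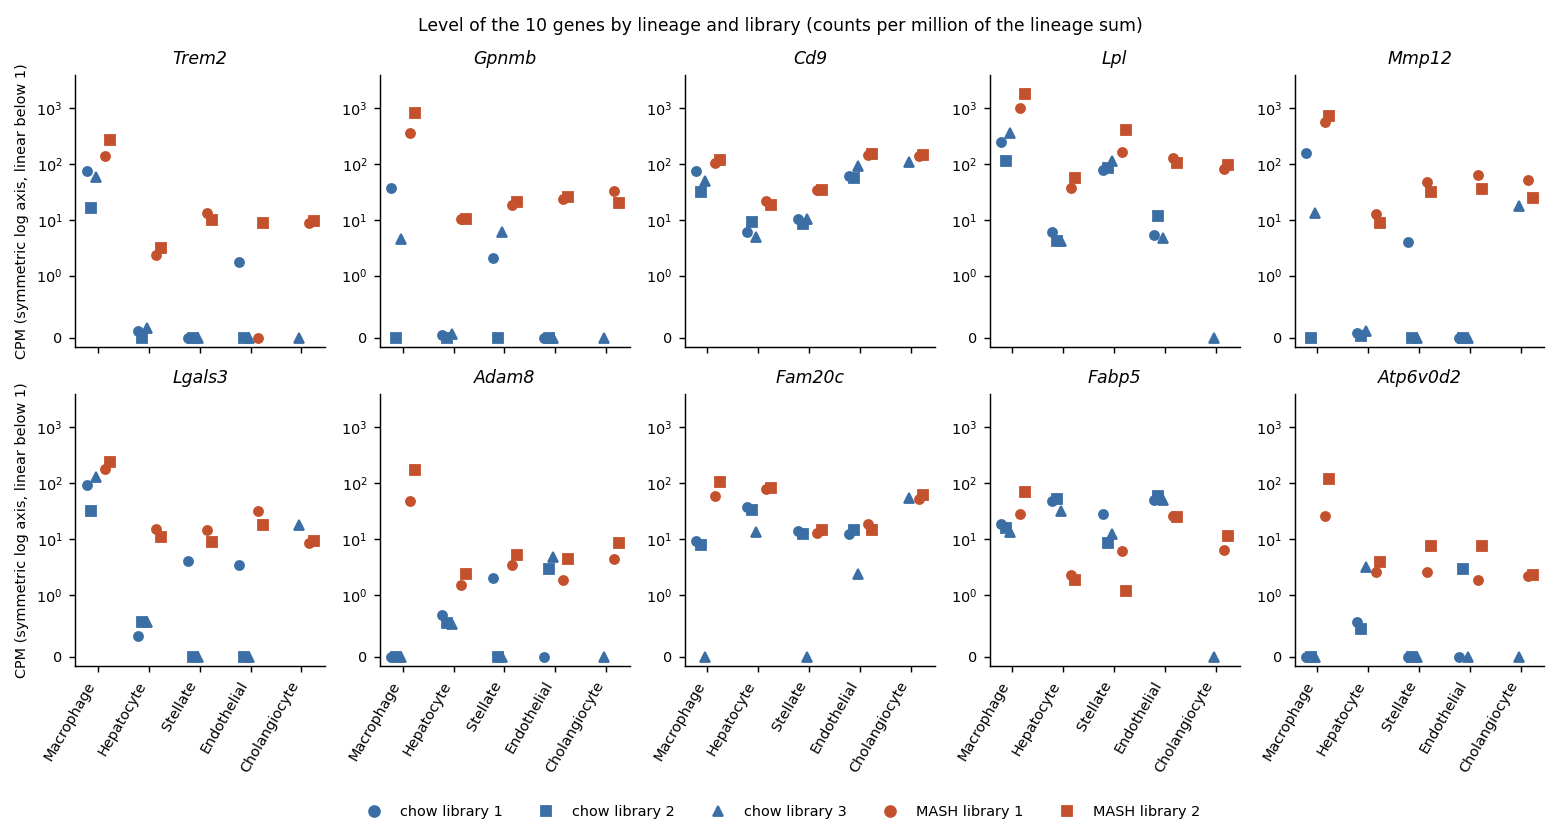
Level of each gene (CPM, symmetric log axis that is linear below 1) in 5 lineages, 1 point per library with at least 20 nuclei, chow in blue and MASH in orange. In the macrophage column every orange point lies above every blue one, while Fabp5 in hepatocytes falls from 32.0 to 51.5 CPM in chow to about 2 CPM in MASH.

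Among the surface receptors, Trem2, the lipid-sensing receptor itself, stood at 74.4, 16.0 and 58.3 CPM in chow libraries 1, 2 and 3 and at 141 and 273 CPM in MASH libraries 1 and 2. The chow values rested on 8, 2 and 13 UMIs. The groups did not overlap, and the fitted log2 fold change was 2.08 ± 0.45 (SE, 3 chow and 2 MASH libraries).

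Gpnmb, a glycoprotein of the lysosome and cell surface, had the largest fitted change of the genes counted in both diets: 37.2, 0 and 4.48 CPM in chow against 360 and 828 CPM in MASH. All 4 UMIs of chow library 1 lay in 1 nucleus. The log2 fold change was 5.69 ± 0.70 and rose to 7.54 without chow library 1. Cd9, a tetraspanin that organises receptors in the membrane, was at 74.4, 31.9 and 49.3 CPM in chow and 103 and 119 CPM in MASH, a log2 fold change of 1.18 ± 0.40. In chow library 1 its 8 UMIs came from 1 nucleus of 108.

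Of the secreted proteins, Lpl, the lipase that frees fatty acids from lipoprotein triglyceride, had the most UMIs of the 10 in this lineage. It stood at 251, 112 and 363 CPM in chow and 1024 and 1811 CPM in MASH. The MASH libraries were both higher than any chow library, with a log2 fold change of 2.57 ± 0.47. A UMI of Lpl was found in 52.1% and 58.1% of MASH macrophage-like nuclei and in 10.8% to 23.5% of chow ones.

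Mmp12, the macrophage elastase, was at 158, 0 and 13.4 CPM in chow and 565 and 715 CPM in MASH. In chow library 1, 16 of its 17 UMIs sat in a single nucleus, and that nucleus was also the one with all 4 Gpnmb UMIs. The log2 fold change of 3.78 ± 0.79 became 6.19 without that library. Lgals3, the carbohydrate-binding lectin galectin-3, was at 93.0, 31.9 and 130 CPM in chow and 180 and 244 CPM in MASH, a log2 fold change of 1.31 ± 0.43.

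Fam20c, the Golgi kinase that phosphorylates secreted proteins, had 1, 1 and 0 UMIs in chow and 87 and 116 in MASH, at 58.8 and 103 CPM. From those pooled counts its level was 17.8 times higher in MASH, with a 95% counting interval of 4.87 to 148. In MASH hepatocyte-like nuclei Fam20c was at 79.5 and 83.2 CPM. Hepatocyte markers summed to 10784 to 25054 CPM in chow and 3903 to 9789 CPM in MASH macrophage-like nuclei. In MASH hepatocyte-like nuclei they summed to 6429 to 7118 CPM. The part of hepatocyte RNA in the macrophage-like level of Fam20c was not tested.

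Adam8, a membrane protease of leukocytes, and Atp6v0d2, a subunit of the proton pump that acidifies lysosomes, had no UMI in any chow macrophage-like nucleus. A count of 0 allowed up to 13.4 to 27.9 CPM in the chow libraries. Adam8 reached 48.0 and 175 CPM in MASH, at least 15.6-fold higher than a floor of 3 UMIs over the chow group with the MASH libraries pooled, and at least 7.30-fold in MASH library 1 alone. Atp6v0d2 reached 26.4 and 118 CPM, at least 10.0-fold higher by the same floor and at least 4.01-fold in MASH library 1 alone, whose level was under the 27.9 CPM that a count of 0 allowed in chow library 1. Both were far higher in MASH library 2 than in MASH library 1.

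Fabp5, a cytosolic carrier of fatty acids, was near its counting floor in chow: 18.6, 16.0 and 13.4 CPM in chow from 2, 2 and 3 UMIs, and 28.4 and 68.7 CPM in MASH. Neither it nor Atp6v0d2 passed the filter on low counts. The direction of Fabp5 depended on how macrophages were defined. A marker gate took nuclei with a UMI of Cd84, Ms4a7, Clec4f or Cd5l as macrophages. Called doublets and nuclei with a UMI of Hnf4a, Reln, Ptprb or Pkhd1 were left out. With this gate the log2 fold change of Fabp5 was -0.94 ± 0.43. The gate took 238, 218 and 260 chow nuclei with 519370, 429276 and 498952 UMIs. Clustering took 108, 111 and 162 with 107478, 125370 and 223162 UMIs. In chow hepatocyte-like nuclei Fabp5 was at 32.0 to 51.5 CPM, and the part of hepatocyte RNA in the gated value was not tested. The same gate lowered Adam8 to 2.67 and Fam20c to 2.10 on the log2 scale.

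**Figure D2:**
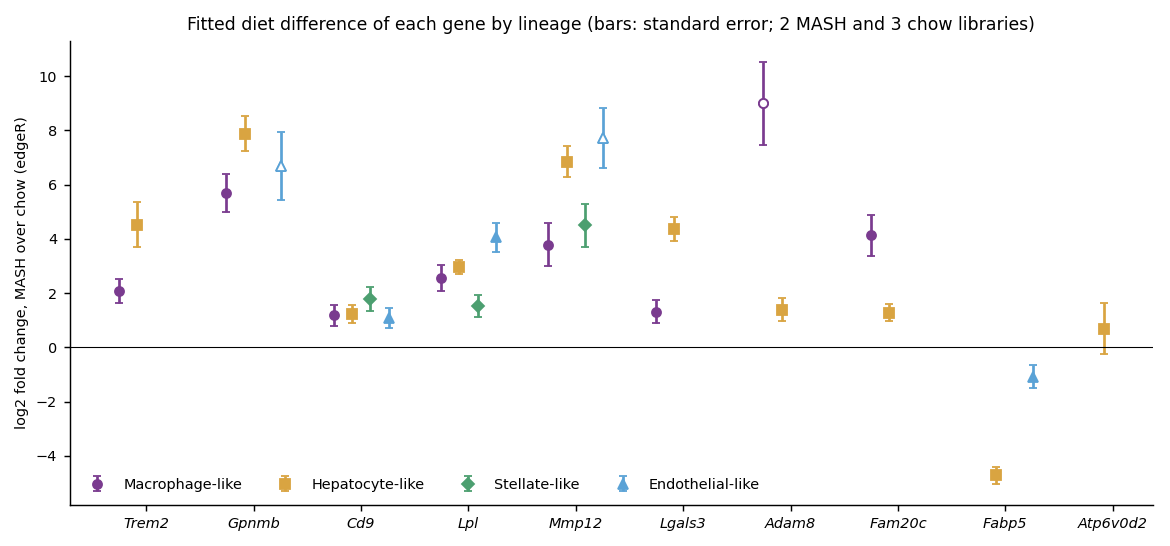
Fitted log2 fold change of MASH over chow for each gene in the 4 lineages where it passed the filter on low counts; bars are standard errors, and open symbols mark genes with no UMI in the chow libraries, whose size depends on the model's prior count. Every symbol lies above 0 except Fabp5 in hepatocyte-like and endothelial-like nuclei, at -4.71 and -1.08.

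Within the macrophage-like nuclei more of the 10 genes were counted per nucleus in MASH than in chow. At least 1 of the 10 was counted in 75.2% and 80.5% of nuclei of the MASH libraries and in 20.7% to 43.2% of chow nuclei. At least 3 were counted in 21.1% and 33.2% in MASH, against 0 to 1.9% in chow. Such shares rise when each gene is counted more often. Whether the genes were found together more than that was not tested. Gpnmb was counted in 20.2% and 33.0% of MASH macrophage-like nuclei, and the level of each of the other 9 genes was higher in those nuclei than in the rest in both libraries. Mmp12, for example, was at 1217 and 1272 CPM in nuclei with Gpnmb and 367 and 350 CPM in nuclei without, and Atp6v0d2 at 78.3 and 216 CPM against 10.6 and 53.2 CPM. Nuclei with Gpnmb were somewhat deeper, with a median of 1269 and 1342.5 UMIs against 1047.5 and 964.

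The macrophage-like nuclei were divided by whether a UMI of a Kupffer cell gene was counted in them. Nuclei with a UMI of Clec4f, Timd4 or Vsig4 made up 73.0% to 87.7% of the macrophage-like nuclei in chow and 35.7% and 24.2% in MASH. Such a UMI was also counted in 2.53%, 1.69% and 2.82% of chow and 5.28% and 2.70% of MASH hepatocyte-like nuclei, which are deeper, and in 4.05% and 1.52% of T and NK-like nuclei in MASH. Median depths were 1094.5 and 1062 UMIs in MASH macrophage-like, 4013.5 and 3942.5 in hepatocyte-like and 1004 and 795 in T and NK-like nuclei. The part of free RNA in the marked nuclei was not tested. In these marked nuclei Gpnmb stood at 0, 0 and 4.96 CPM in chow and 294 and 592 CPM in MASH, and Lpl at 262, 92.7 and 372 CPM against 1004 and 1372 CPM. In the unmarked nuclei of MASH the levels were higher for 9 of the 10 genes in library 1, Mmp12 being the exception, and for 10 of 10 in library 2. Adam8 showed it most in library 2, at 218 CPM in unmarked and 67.8 CPM in marked nuclei. Unmarked chow nuclei were few, 20 to 30 per library, and the single nucleus of chow library 1 with Mmp12 and Gpnmb was among them, so Mmp12 stood at 861 CPM in its 23 unmarked nuclei. In those 23 nuclei Trem2 (304 CPM) and Cd9 (405 CPM) were also above both MASH libraries, which had 154 and 299 CPM of Trem2 and 108 and 136 CPM of Cd9. Fabp5 in unmarked nuclei was at 50.6, 70.8 and 46.6 CPM in chow and 39.6 and 85.4 CPM in MASH, which overlapped. A nucleus without such a UMI is not shown to lack the gene, since the median depth in MASH was 1245 and 1295 UMIs with such a UMI and 1017 and 992 without.

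**Figure D3:**
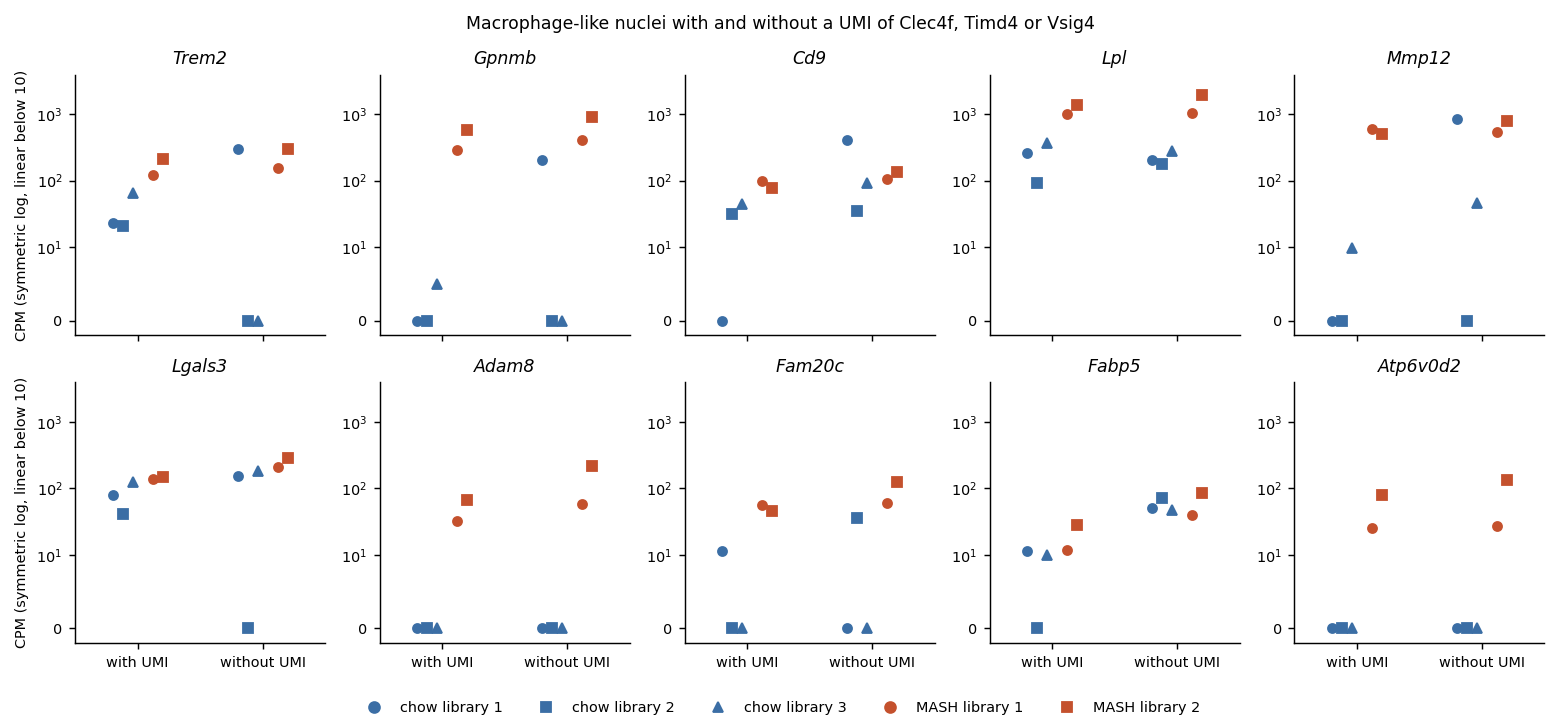
Level of each gene (CPM, symmetric log axis that is linear below 10) in macrophage-like nuclei with or without a UMI of the Kupffer genes Clec4f, Timd4 or Vsig4, 1 point per library. Both MASH libraries lie above all chow libraries in marked nuclei for each gene, by little for Fabp5 (11.4 CPM in chow library 1, 11.8 CPM in MASH library 1). In unmarked nuclei chow library 1 lies above both for Mmp12 (861 CPM), Trem2 (304 CPM) and Cd9 (405 CPM, from 8 UMIs in 1 nucleus).

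The share of each gene's RNA that lay in macrophages differed widely among the 10. In MASH, macrophage-like nuclei supplied 6.17% and 4.06% of all UMIs of the 5 lineages but 75.7% and 73.4% of Trem2 UMIs. For Mmp12 the shares were 69.3% and 71.5%, for Gpnmb 67.6% and 74.4%, and for Adam8 65.7% and 71.0%. For these 4 genes most UMIs lay in macrophage-like nuclei in both MASH libraries. Lpl (59.1% and 48.3%), Lgals3 (43.5% and 48.8%), Atp6v0d2 (40.6% and 54.5%) and Fabp5 (37.5% and 49.0%) were divided between macrophages and other lineages. Cd9 had 19.9% and 14.0% of its UMIs there and Fam20c 4.97% and 5.47%.

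**Figure D4:**
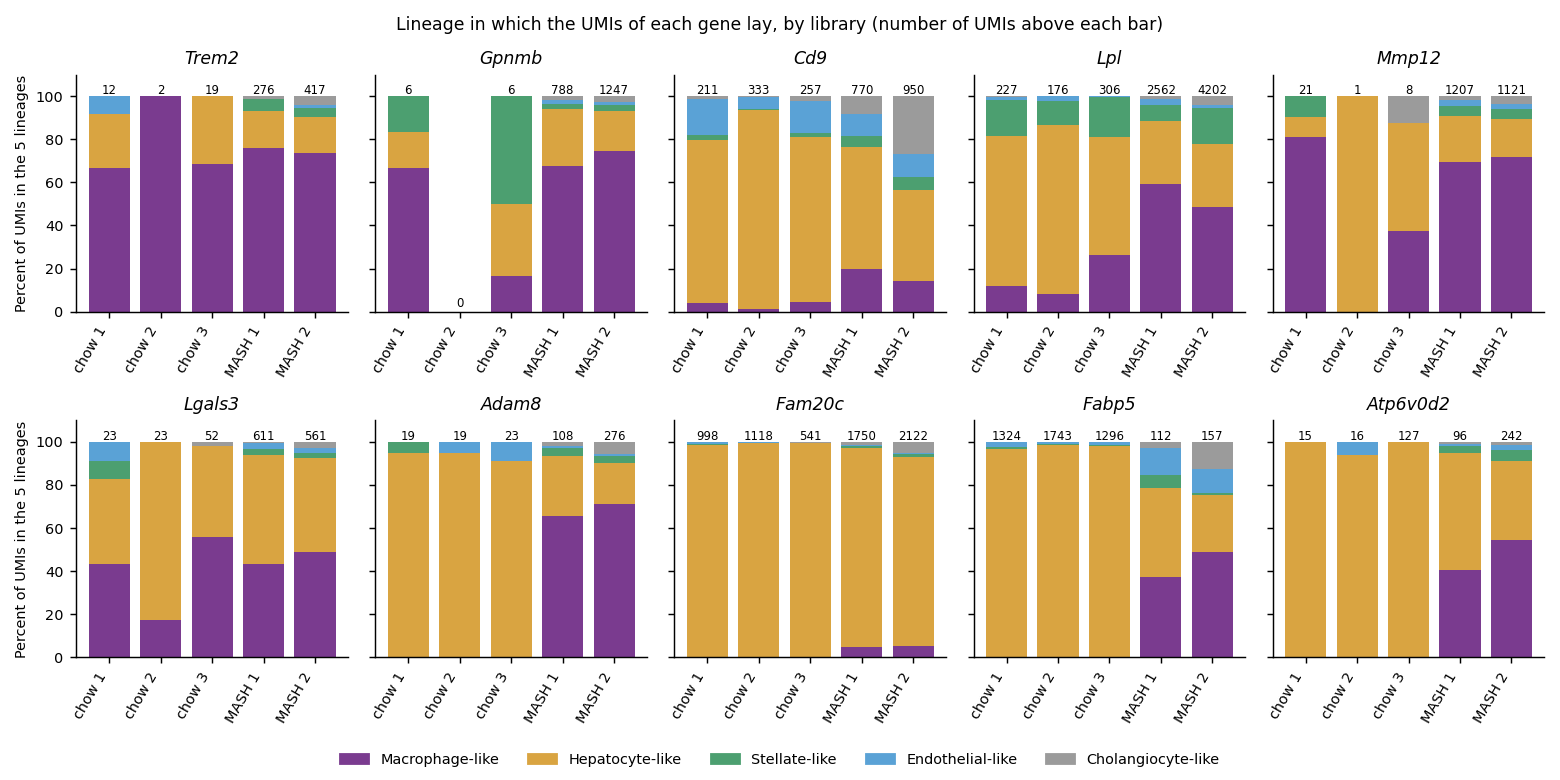
Percent of each gene's UMIs, of those in the 5 lineages, that lay in each lineage, 1 bar per library, with the number of UMIs above the bar. Macrophage-like nuclei (purple) hold most Trem2, Gpnmb, Mmp12 and Adam8 UMIs in both MASH libraries, and hepatocyte-like nuclei (yellow) hold most Fam20c UMIs in all 5 libraries.

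In chow, hepatocyte-like nuclei supplied 95.7% to 97.9% of the UMIs of the 5 lineages, and the picture was different. They held 91.3% to 94.7% of the few Adam8 UMIs, 93.8% to 100% of those of Atp6v0d2 and 96.6% to 98.6% of those of Fabp5. Trem2 had 66.7%, 100% and 68.4% of its 12, 2 and 19 UMIs of the 5 lineages in macrophage-like nuclei. Over all named nuclei, monocyte-like nuclei included, the shares were 44.4%, 50% and 65% of 18, 4 and 20 UMIs. Of the 27, 23 and 33 Adam8 UMIs of all named nuclei, hepatocyte-like nuclei held 66.7%, 78.3% and 63.6%. Monocyte-like nuclei held 25.9%, 17.4% and 30.3% of them. A share depends on how many UMIs a lineage supplies, so the level in each lineage is given as well.

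By level, 8 of the 10 genes had their highest mean of the 5 lineages in macrophage-like nuclei in MASH, the exceptions being Cd9 and Fam20c. For Cd9 the order was endothelial-like (143 and 153 CPM), cholangiocyte-like (141 and 144 CPM) and macrophage-like nuclei, and the ranges of endothelial-like and cholangiocyte-like nuclei overlapped. In chow, endothelial-like nuclei were at 61.0, 56.2 and 90.0 CPM.

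For Fam20c, hepatocyte-like nuclei at 79.5 and 83.2 CPM and macrophage-like nuclei at 58.8 and 103 CPM overlapped, followed by cholangiocyte-like nuclei at 51.9 and 62.8 CPM. Fam20c in hepatocyte-like nuclei was at 36.8, 33.2 and 13.6 CPM in chow, and at most 5 UMIs were counted in any 1 nucleus of either diet.

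For the other 8 genes the ranges of macrophage-like nuclei and of the next lineage did not overlap in MASH. Lpl came second in stellate-like nuclei, at 163 and 401 CPM in MASH and 76.9, 83.7 and 114 CPM in chow, with a log2 fold change of 1.54 ± 0.41. In chow the Lpl ranges of macrophage-like and stellate-like nuclei overlapped. Trem2 had 15 and 17 UMIs in stellate-like nuclei of MASH and 0 in chow. Mmp12 reached 62.5 and 35.6 CPM in endothelial-like nuclei, where chow had 0 UMIs, at least 21.2-fold higher than a floor of 3 UMIs.

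To set these levels against RNA of macrophages found in other lineages, each was divided by the macrophage-like level of the same library, and so were the 12 macrophage markers. In hepatocyte-like nuclei of MASH libraries 1 and 2 the summed markers stood at 2.14% and 1.31% of their macrophage level, and single markers ranged from 0.875% to 3.26% and from 0 to 2.04%. Trem2 (1.67% and 1.16%), Gpnmb (2.81% and 1.25%), Mmp12 (2.25% and 1.24%) and Adam8 (3.08% and 1.36%) lay within the range of the markers in both libraries. Lpl (3.62% and 3.06%), Lgals3 (8.40% and 4.47%), Atp6v0d2 (9.71% and 3.34%), Fabp5 (7.97% and 2.67%), Cd9 (20.7% and 15.2%) and Fam20c (135% and 80.4%) lay above the highest marker in both. The part of macrophage RNA in the levels of these genes was not tested.

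In the other lineages the markers stood at a larger percent of their macrophage level, from fewer UMIs. Their summed level was 5.88% and 3.98% of the macrophage level in stellate-like, 10.2% and 5.59% in endothelial-like and 7.90% and 5.22% in cholangiocyte-like nuclei. Above the highest single marker in both MASH libraries were Cd9, Lpl and Fam20c in stellate-like nuclei, Cd9, Fam20c and Fabp5 in endothelial-like nuclei, and Cd9 and Fam20c in cholangiocyte-like nuclei. Mmp12 was at 8.42% and 4.37% in stellate-like and 11.1% and 4.97% in endothelial-like nuclei, within the markers' range in each.

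**Figure D5:**
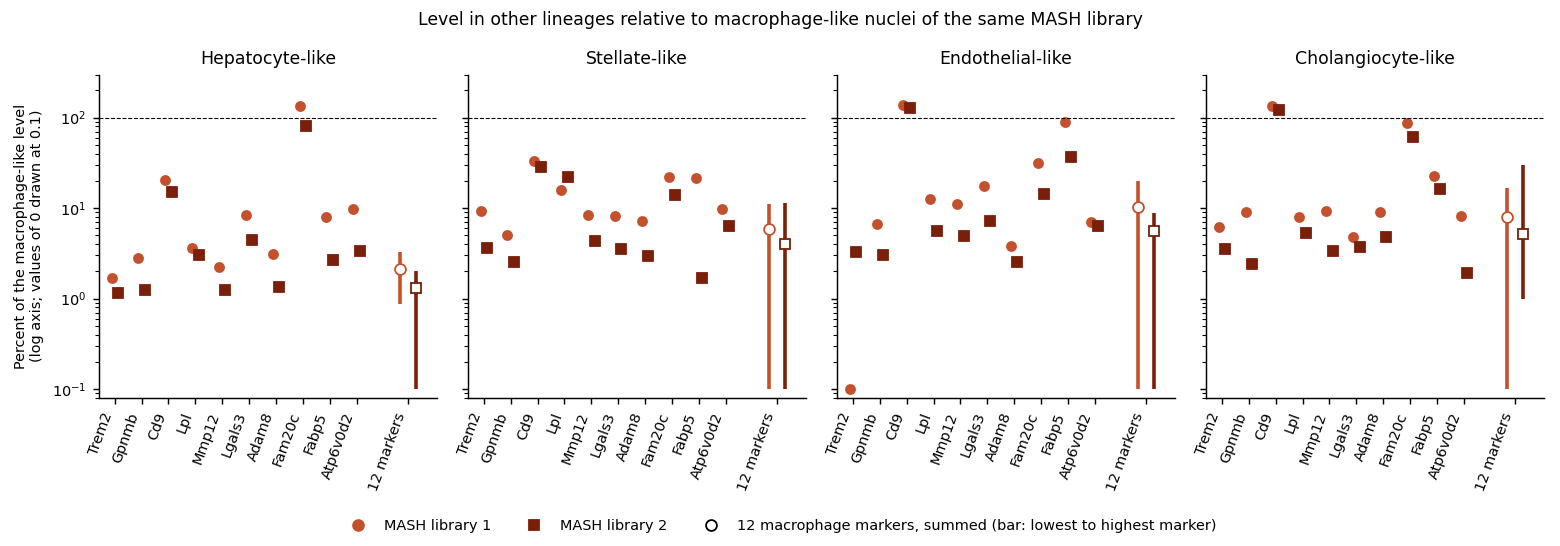
Level of each gene in 4 lineages as a percent of its level in macrophage-like nuclei of the same MASH library (log axis, values of 0 drawn at 0.1); open symbols and bars show the sum and the range of 12 macrophage markers. In hepatocyte-like nuclei Trem2, Gpnmb, Mmp12 and Adam8 lie within the bar of their library and Cd9 and Fam20c lie far above it.

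Nuclei with any macrophage marker UMI were then left out of the other lineages, which set the markers there to 0. This kept 3235 of 4682 and 3663 of 4778 hepatocyte-like nuclei of MASH libraries 1 and 2. The hepatocyte-like level of Trem2 was then 1.60% and 1.03% of the macrophage level, that of Gpnmb 2.81% and 1.20%, and that of Lgals3 8.61% and 4.52%. The values with all nuclei were 1.67% and 1.16% for Trem2, 2.81% and 1.25% for Gpnmb and 8.40% and 4.47% for Lgals3. A nucleus without a marker UMI is not shown to lack macrophage RNA, and the part of such RNA in these levels was not tested.

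Between the diets, 7 of the 10 genes were called higher and 1 lower in hepatocyte-like nuclei, where 13.3% of 14929 tested genes were called, and nothing is read from the count. Lpl was at 5.92, 4.14 and 4.22 CPM in chow and 37.0 and 55.5 CPM in MASH, a log2 fold change of 2.96 ± 0.26. Lgals3 went from 0.337, 0.570 and 0.556 CPM to 15.1 and 10.9 CPM. Gpnmb had 1, 0 and 2 UMIs in chow and 206 and 231 in MASH. The macrophage markers moved in the same lineage: their summed level was 15.9 to 23.6 CPM in chow and 96.2 and 62.4 CPM in MASH libraries 1 and 2, and 4 of the 11 tested were called higher and 0 lower. No marker was at 0 over the libraries of either diet. The part of this rise in the values of the 10 genes was not tested.

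Fabp5 moved the other way in hepatocyte-like nuclei. It stood at 47.9, 51.5 and 32.0 CPM in chow, from 1279, 1718 and 1266 UMIs, and at 2.26 and 1.83 CPM in MASH, from 46 and 41. The chow and MASH libraries were far apart, with a log2 fold change of -4.71 ± 0.31. The share of nuclei with a UMI was 11.1% to 14.0% in chow and 0.918% and 0.837% in MASH, and 1.58% to 2.43% against 0.126% and 0.0897% when each nucleus was thinned to 500 UMIs. In endothelial-like nuclei Fabp5 was also lower in MASH, at 25.7 and 25.2 CPM against 50.5, 59.2 and 49.7 CPM. Hepatocyte markers in the same nuclei summed to 10945 to 24369 CPM in chow and 4828 to 10639 CPM in MASH, with a median log2 fold change of -1.38 beside -1.08 for Fabp5 and 0 of 8 called. Their part in the level of Fabp5 was not tested. Its paralog Fabp1, the liver carrier of fatty acids, was at 1033, 1416 and 768 CPM in chow hepatocyte-like nuclei and 641 and 462 CPM in MASH, which did not pass the test (log2 fold change -1.26 ± 0.39, edgeR adjusted p = 0.0739).

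Adam8 and Atp6v0d2 were low in hepatocyte-like nuclei of both diets. Adam8 was at 0.531 to 0.675 CPM in chow and 1.48 and 2.37 CPM in MASH. The diets of Atp6v0d2 overlapped there: 0.562, 0.450 and 3.21 CPM in chow and 2.56 and 3.94 CPM in MASH. Its 127 UMIs in chow library 3 were spread over 114 nuclei, and without that library its log2 fold change went from 0.69 to 2.45.

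In stellate-like nuclei 3 of the 10 genes passed the filter and 1 was called, of 0.855% called over 7949 genes. That was Mmp12, with 2 (both in 1 nucleus), 0 and 0 UMIs in chow and 55 and 54 in MASH. Cd9 was at 10.1, 8.37 and 10.2 CPM in chow and 34.6 and 33.6 CPM in MASH. In endothelial-like nuclei 5 of the 10 passed and 3 were called, all higher, of 0.698% called over 8312 genes. Nothing is read from the counts of either lineage. Gpnmb and Mmp12 had 0 UMIs in chow endothelial-like nuclei. Without chow library 3 no gene of the whole lineage was called by edgeR, with 502 at an unadjusted p under 0.05. Lpl went there from 5.23, 11.8 and 4.74 CPM to 129 and 102 CPM. The macrophage markers summed to 62.7 to 81.6 CPM in chow and 264 and 189 CPM in MASH in stellate-like nuclei, with 0 of 4 tested called. In endothelial-like nuclei they summed to 166 to 272 CPM and to 460 and 265 CPM, with 0 of 5 called. Ms4a7 was at 0 in chow in both lineages, Marco in MASH stellate-like and chow endothelial-like nuclei and Timd4 in MASH endothelial-like nuclei, and the part of such RNA was not tested. No diet contrast was made in cholangiocyte-like nuclei, since only 1 chow library had 20 or more of them.

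Outside the 5 lineages, several of the genes were counted in monocyte-like nuclei, of which the chow libraries had 50, 31 and 43. In monocyte-like nuclei, which also carried dendritic cell markers, Adam8 was at 126, 100 and 194 CPM in chow, from 7, 4 and 10 UMIs, and at 33.4 and 34.1 CPM in MASH. The chow values were all above the MASH values, opposite to macrophage-like nuclei. Lgals3 was at 360, 50.2 and 155 CPM in chow and 148 and 68.2 CPM in MASH, which overlapped. Cd9 was at 126, 75.3 and 58.2 CPM in chow, above the macrophage-like level of each chow library, and at 89.0 and 102 CPM in MASH. Fabp5, at 90.0, 25.1 and 19.4 CPM in chow from 5, 1 and 1 UMIs, was also above it, and Trem2 was above it in chow libraries 1 and 2, at 108 and 50.2 CPM from 6 and 2 UMIs. These chow levels rest on few UMIs.

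Mmp12 in B-like nuclei of MASH library 2 reached 479 CPM, but 22 of its 27 UMIs came from 1 nucleus.

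Over the 23 sums of a lineage and a library with at least 20 nuclei, each gene's log2(CPM + 10) was compared with the mean of the other 9. Pearson's r was 0.96 for Gpnmb, 0.91 for Mmp12, 0.89 for Adam8, 0.87 for Atp6v0d2, 0.86 for Trem2 and 0.79 for Lgals3. It was 0.70 for Lpl, 0.48 for Cd9, 0.36 for Fam20c and 0.08 for Fabp5. With the mean of the 10, 10927 genes were compared, and the 10 and the macrophage markers were then left out. The profiles most like that mean included those of Gm21188 (r = 0.94), Cx3cr1 (0.93), H2-M2 (0.93), Tnip3 (0.93), Gm36161 (0.93), Mfsd12 (0.92) and Il21r (0.92). Cx3cr1 is the fractalkine receptor of monocytes and their descendants. Sums of 1 library share its depth and free RNA, and these values describe likeness only.

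Genes that work with the 10 were followed in macrophage-like nuclei through lists, whose members were tested over all genes. Of 24 tested lysosomal and acidification genes 1 rose and 0 fell, with a median log2 fold change of 0.43 against -0.01 over all genes. The one that rose was Cd63, a lysosomal tetraspanin like Cd9, from 37.2, 23.9 and 35.8 CPM to 162 and 202 CPM (log2 fold change 2.51 ± 0.40, edgeR adjusted p = 0.0093). It was not called without chow library 1 (adjusted p = 0.0769) or 3 (0.0614). Atp6v0d1, the widely used counterpart of Atp6v0d2, was at 65.1, 23.9 and 44.8 CPM in chow and 28.4 and 31.2 CPM in MASH and did not pass (-0.50 ± 0.50, adjusted p = 0.776).

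Of 16 tested genes of lipid uptake, storage and efflux 0 were called in either direction by edgeR, and the same test called 7 genes over all the lists. Fabp4, the neighbour of Fabp5 in sequence and place, went from 18.6, 0 and 4.48 CPM to 46.7 and 68.7 CPM (3.11 ± 0.75, adjusted p = 0.0664). Gpihbp1, which carries LPL to the capillary wall, was not tested in macrophages, where it had 0 to 6 UMIs in the chow libraries. It was at 180 to 540 CPM in chow endothelial-like nuclei and at 287 and 366 CPM in MASH.

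Of 10 tested genes of the TREM2 pathway, 1 rose: Malt1, a protease of the CARD9 and BCL10 complex, from 46.5, 31.9 and 49.3 CPM to 117 and 244 CPM (2.05 ± 0.42, edgeR adjusted p = 0.0315). It was not called without chow library 1 (adjusted p = 0.154), 2 (0.072) or 3 (0.159) or MASH library 2 (0.235). Tyrobp, the adaptor of TREM2, was at 93.0, 79.8 and 327 CPM in chow and 135 and 87.4 CPM in MASH and did not pass (-0.57 ± 0.54, adjusted p = 0.763). Its direction rested on chow library 3, since without it the log2 fold change was 0.47.

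Of 10 tested transcription factors 0 were called by edgeR. The MiT/TFE factors were Mitf (log2 fold change 0.29 ± 0.40), Tfe3 (-0.37 ± 0.42) and Tfec (-1.36 ± 0.45), with edgeR adjusted p-values of 0.85, 0.801 and 0.195, and Tfeb did not pass the filter at 13 UMIs over the chow libraries. Of 11 tested other genes of lipid-associated macrophages 3 rose: Spp1 (osteopontin, 4.50 ± 0.58, edgeR adjusted p = 0.0035), Itgax (CD11c, 5.81 ± 0.78, adjusted p = 0.0038) and Cd63. Spp1 was also called higher in hepatocyte-like (4.08 ± 0.69, edgeR adjusted p = 0.0151), stellate-like (4.33 ± 0.38, 0.0015) and endothelial-like nuclei (5.17 ± 0.75, 0.0134), and Cd63 in endothelial-like nuclei (3.31 ± 0.47, 0.0134). Itgax was also called in hepatocyte-like nuclei (4.33 ± 0.59, 0.0083). That list was chosen with results of these samples known and is no independent evidence of its direction. Clec7a, also on it, was not analysed here. Of 14 tested paralogs and partners, Cd63 alone rose and 0 fell.

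Of 11 tested Kupffer cell genes 3 fell, 0 rose and 8 did not pass, where 1.74% of all genes tested were called. The genes that fell were Cd163, the haemoglobin scavenger receptor, from 1117, 678 and 1201 CPM to 9.47 and 4.46 CPM (log2 fold change -6.99 ± 0.61), Timd4, a receptor for phosphatidylserine on dying cells, from 167, 160 and 287 CPM to 15.6 and 6.24 CPM (-4.11 ± 0.54), and C6, a complement component (-2.38 ± 0.45). Their edgeR adjusted p-values were 0.0005, 0.0035 and 0.0198. The summed 12 macrophage markers, some of them Kupffer genes, were 4929 to 8720 CPM in chow and 4493 and 4748 CPM in MASH macrophage-like nuclei. Monocyte markers summed to 372 to 495 CPM in chow and 576 and 544 CPM in MASH there, with 1 of 2 tested called higher and F13a1 and Chil3 at 0 in chow. The same markers summed to 991 to 1715 and 957 to 1166 CPM in hepatocyte-like nuclei of chow and MASH. They summed to 531 to 773 and 734 to 806 CPM in stellate-like and 284 to 453 and 351 to 476 CPM in endothelial-like nuclei. The monocyte sum is thus not particular to monocyte RNA. In such sums fewer nuclei of one kind and less RNA per nucleus cannot be told apart.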

How the data were processed

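Single nuclei of whole liver were sequenced in 5 libraries, each a GEO sample grouped by its diet label. The authors deposited filtered matrices of raw UMI counts per gene and nucleus, made with Cell Ranger 8.0.1 on GRCm38 with introns excluded, so nascent transcripts were largely not counted. Total counts were 35612373 to 49137377 UMIs per library. Nuclei with under 300 genes were removed. Scrublet (scanpy 1.11.5) called 0 to 3 doublets per library automatically, so the highest scores were removed at 0.8% per 1000 nuclei. Nuclei were clustered with Seurat 5.3.0 (3000 variable genes without the 10 genes, 15 components). Clusters were named from markers, except that the first clustering took hepatocyte-like clusters by default. Integrating libraries in the second clustering was decided after seeing the data. UMIs were summed per library and lineage with at least 20 nuclei and compared with edgeR 4.0.16 (R 4.3.3, TMM, filterByExpr, Benjamini-Hochberg over all genes tested, called at adjusted p under 0.05); p-values measure only the spread between these libraries. The code was tested on simulated data. The 10 genes and all lists were chosen with earlier results of these data known. Named were all 10 genes, up to 4 called genes per list with the smallest adjusted p, 8 partners fixed by name, and the 8 most alike profiles, of which 1 is not reported here. DESeq2 1.42.0, RLE size factors, 2 other filters, a replicate block, kept doublets, a marker gate, omission of nuclei with a macrophage marker UMI and omission of each library were tried. Intervals (95%, exact) and floors of 3 counts cover counting error only.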

Additional observations from a re-analysis of the deposited data

Results flagged for a closer look

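Fabp5 stood out because its diets were separated in opposite directions, MASH being higher in macrophage-like nuclei and lower in 3 other lineages. Written as the log2 ratio of the pooled MASH over chow ratios, the gap between macrophage-like and hepatocyte-like nuclei was 5.97, that to stellate-like nuclei 4.10 and that to endothelial-like nuclei 2.62. The difference between lineages was not tested. Hepatocyte markers had a median log2 fold change of -1.66 in stellate-like and -1.38 in endothelial-like nuclei (0 of 8 called in each), and their part in the lower Fabp5 there was not tested. In macrophage-like nuclei Fabp5 rested on 2, 2 and 3 UMIs in chow. With a marker gate in place of clusters its log2 fold change there was -0.94, so the opposite direction depended on how macrophages were taken. The gate took 238, 218 and 260 chow nuclei against 108, 111 and 162 by clustering. The part of hepatocyte RNA in the gated value was not tested.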

How the results depend on the processing

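The fitted fold changes of the 10 genes that were tested kept their sign under every alternative run (319 values), Fabp5 in macrophage-like nuclei not being among them, and 8 to 9 of the 10 had their highest level in macrophage-like nuclei of MASH. The counts of called genes moved far more. In macrophage-like nuclei 86 genes were called, 312 with no filter on low counts and 23 with a stricter one, and 26 to 168 when 1 library was left out. In hepatocyte-like nuclei 1981 were called, 3393 by DESeq2 and 140 to 2753 with a library left out. In stellate-like nuclei 68 were called, 134 by DESeq2, 534 with no filter, 35 with the stricter filter and 9 to 113 with a library left out. In endothelial-like nuclei 58 were called, 88 by DESeq2, 270 with no filter, 37 with the stricter filter, 35 with doublets kept, 103 with the marker gate and 0 to 50 with a library left out; the 0 was without chow library 3, by edgeR, with 502 genes at an unadjusted p under 0.05. Over the lists in macrophage-like nuclei 7 were called, 15 with no filter, 4 with the stricter filter and 4 to 8 with a library left out. The cause of these shifts was not tested.

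With the replicate number as a block, 5 genes were called in macrophage-like, 42 in stellate-like and 37 in endothelial-like nuclei, and 1 over the lists. The libraries share only a number: the deviations of same-numbered libraries correlated at -0.26 and -0.33 in macrophage-like nuclei (7887 genes). Directions turned for Tyrobp (0.355 with the block, -1.09 to 0.469 with a library left out), Tfe3 (0.0181 with the block, -0.655 to 0.0617 with a library left out) and Mitf (-0.0216 to 0.575 with a library left out), with 0 of the 3 called in the full set. Chow macrophages, 108 to 162 nuclei a library, limit what can be seen of rare genes. The cholangiocyte contrast and its alternatives were not run, since 1 chow library had enough nuclei.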
